A study of Homo sapiens with 2 samples.

Results

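The circadian clock of mammalian cells was followed through 10 transcripts, PER1, PER2, PER3, CRY1, CRY2, NR1D1, NR1D2, DBP, TEF and BHLHE40. They make up 10 of the 58884 genes in the deposited table and were chosen by name, with earlier results of these data known. The cells were TPC-1, an established human thyroid cancer line derived from a papillary carcinoma. In the siXPR1 library the cells had been transfected with an siRNA against XPR1, the phosphate exporter of human cells, and in the siControl library with a control siRNA. Each group is 1 library of total RNA, so the conditions cannot be tested, no p-value is given, and the intervals below cover counting error only. The sources used here give neither the time between transfection and collection nor any synchronisation of the cultures. Each library is a single time point, so a difference in clock phase cannot be told apart from a difference in mean level. Likewise, in bulk RNA a smaller share of cells that express a gene cannot be told apart from less of its RNA per cell.

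The clock is a set of interlocking transcription loops. The activators CLOCK (or its relative NPAS2) and BMAL1 bind E-box elements and switch on the PER and CRY genes, whose proteins return to the nucleus and block that activation. NR1D1 and NR1D2, the REV-ERB nuclear receptors, are switched on through the same elements and repress BMAL1, against the ROR receptors. DBP, TEF and HLF are activators of D-box elements, at which NFIL3 represses, and BHLHE40 and BHLHE41 compete for E-boxes. Many of these genes also answer to serum, cAMP, glucocorticoids and stress, outside the daily cycle.

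XPR1 transcript was 5.31 TPM in the siXPR1 library and 39.2 TPM in the siControl library, or 13.5% of the siControl level (95% interval 11.6% to 15.8%). TPM is a share of all transcripts corrected for gene length. The lengths used here are those of all annotated exons of a gene, merged. For DBP this is 6544 bases, in a gene that spans 48630030 to 48637438. Where the transcripts made are shorter than the merged exons, TPM understates them. Orders, sums and shares across genes below are therefore approximate. The ratio of a gene between libraries uses 1 length, which does not allow for a change in its transcript forms between them. Such a change was not tested. The libraries held about 15150000 (siXPR1) and 15780000 (siControl) reads, recovered from the TPM values and gene lengths, and listed 23489 and 23659 genes above 0. Of 8 thyroid follicular markers, 3 had a mean of at least 1 TPM. PAX8 was at 408.6 TPM (siXPR1) and 588.1 TPM (siControl), whereas NKX2-1, TSHR and SLC5A5 were listed at 0 in both libraries. Among epithelial markers, EPCAM was listed at 0 and CDH1 was below 1 TPM in both libraries, while KRT18 was 94.0 and 135.9 TPM in siXPR1 and siControl. All 5 leukocyte markers were below 1 TPM in both libraries. The 3 endothelial markers summed to 0.971 TPM in siXPR1 and 1.49 TPM in siControl. The 5 fibroblast markers summed to 6.74 TPM in siXPR1 and 1.44 TPM in siControl, nearly all of it COL1A1, with DCN listed at 0 in both. Their part in the values below was not tested.

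The promoters of the members that differed most are shown first, because the clock loops act through short elements near the start sites. Windows of 300 bases, from 250 before to 50 after an annotated start, came from RefSeq on GRCh38.p14. All 10 members matched, with 14 windows. The windows searched here were read on both strands for the E-box CACGTG, the E'-box CACGTT, the D-box TTATGTAA or TTACGTAA, the REV-ERB and ROR element (AGGTCA directly after AANT) and the cAMP response element TGACGTCA. In the 5 windows below, written 5′ to 3′ on the gene's own strand, capitals mark these matches. They are the windows of PER2 (chr2:238288561-238288860, minus strand), NR1D1 (chr17:40100540-40100839, minus strand), NR1D2 (chr3:23945871-23946170, plus strand), BHLHE40 (chr3:4979187-4979486, plus strand) and DBP (chr19:48637330-48637629, minus strand). For NR1D2, which has 2 windows, the inner one is shown because it holds all of that gene's matches.
PER2: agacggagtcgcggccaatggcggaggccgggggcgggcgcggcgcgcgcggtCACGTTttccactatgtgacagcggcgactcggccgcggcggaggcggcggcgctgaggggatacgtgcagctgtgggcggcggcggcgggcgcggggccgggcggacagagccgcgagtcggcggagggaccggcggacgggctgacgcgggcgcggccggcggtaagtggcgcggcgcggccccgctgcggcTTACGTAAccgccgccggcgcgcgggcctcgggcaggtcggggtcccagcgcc
NR1D1: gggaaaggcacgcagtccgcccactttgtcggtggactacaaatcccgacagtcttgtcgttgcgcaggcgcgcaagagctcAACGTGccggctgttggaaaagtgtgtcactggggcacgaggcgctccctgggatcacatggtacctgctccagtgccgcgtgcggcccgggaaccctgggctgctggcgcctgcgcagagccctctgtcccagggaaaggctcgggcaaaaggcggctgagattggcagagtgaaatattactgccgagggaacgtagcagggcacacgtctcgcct
NR1D2: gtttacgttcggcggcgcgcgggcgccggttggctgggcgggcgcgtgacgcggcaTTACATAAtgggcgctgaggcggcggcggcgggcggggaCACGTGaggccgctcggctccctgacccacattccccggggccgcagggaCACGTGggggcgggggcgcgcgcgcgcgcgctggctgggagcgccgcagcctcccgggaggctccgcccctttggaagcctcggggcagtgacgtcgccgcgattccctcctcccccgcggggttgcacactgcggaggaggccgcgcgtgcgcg
BHLHE40: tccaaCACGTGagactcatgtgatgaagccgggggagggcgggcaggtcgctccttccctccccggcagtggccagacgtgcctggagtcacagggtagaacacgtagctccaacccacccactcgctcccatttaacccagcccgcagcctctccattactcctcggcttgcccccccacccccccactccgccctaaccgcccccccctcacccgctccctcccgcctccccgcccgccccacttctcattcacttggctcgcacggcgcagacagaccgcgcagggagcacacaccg
DBP: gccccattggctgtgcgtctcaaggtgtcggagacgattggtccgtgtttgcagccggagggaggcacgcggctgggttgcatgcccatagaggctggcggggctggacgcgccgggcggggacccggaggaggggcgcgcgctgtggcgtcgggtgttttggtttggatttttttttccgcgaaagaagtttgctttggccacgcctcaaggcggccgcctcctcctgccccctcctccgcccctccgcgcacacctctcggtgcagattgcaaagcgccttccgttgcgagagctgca

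An E-box stood in 5 of the 14 member windows, which belong to 4 members (PER1, NR1D2, TEF and BHLHE40), and in 7.26% of all 35116 windows of the table. The NR1D2 window held an E-box starting 155 bases before the start site and another starting 105 bases before it. The BHLHE40 match lay 245 bases and the PER1 match 173 bases before the start. The E'-box stood in 4 member windows, those of PER2, CRY1, CRY2 and NR1D1, and in 5.34% of all windows. A D-box stood in 3 member windows, those of PER2, PER3 and NR1D2, and in 1.01% of all windows. In PER2 it spans the start site itself, and in NR1D2 it lies 194 bases before the start. Neither the REV-ERB and ROR element (0.168% of all windows) nor the cAMP response element (1.85%) was found in a member window. The DBP window held none of the 5 elements, which says only that these letters are not in it. GC content of the member windows ran between 46.3% and 81.0%, with a median of 69.3%, against a median of 58.7% over all windows. The part of GC content in the counts of elements was not tested.

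**Figure D1:**
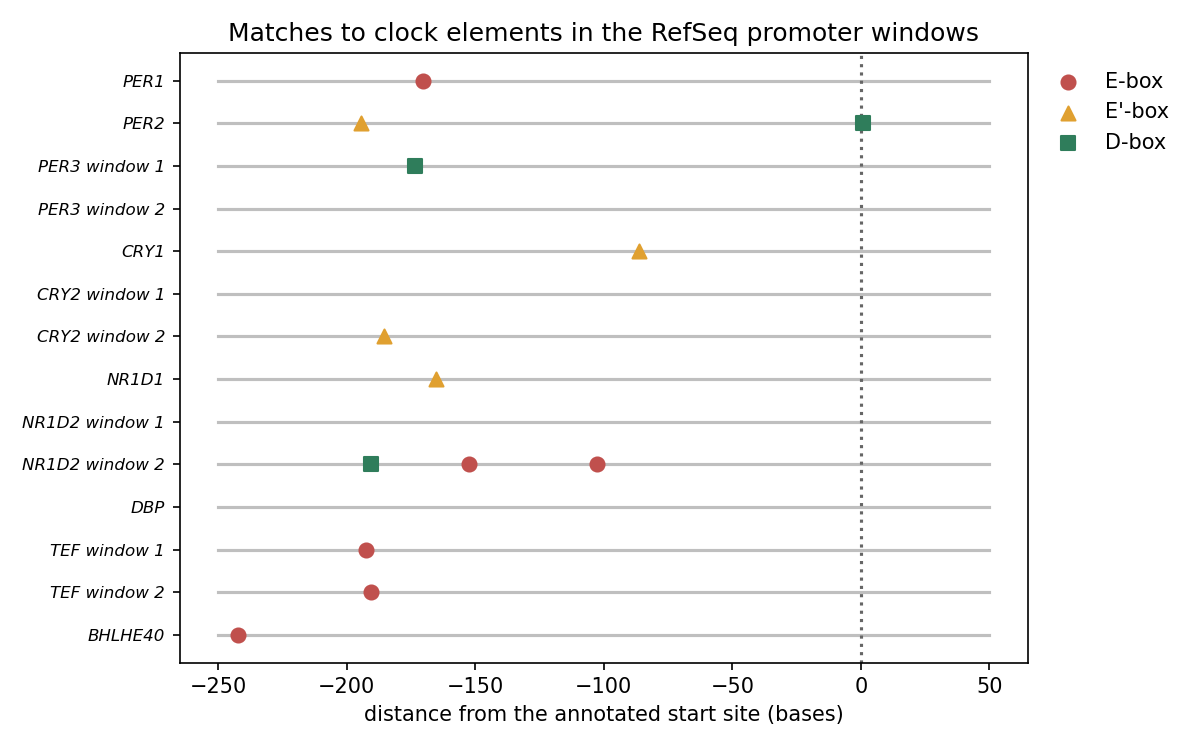
Positions of E-box, E'-box and D-box matches in the 14 RefSeq promoter windows of the 10 members, in bases from the annotated start site. Windows of PER1, NR1D2, TEF and BHLHE40 hold an E-box, and those of PER2, PER3 and NR1D2 hold a D-box.

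All 10 members had a mean of at least 1 TPM. On the log2(TPM + 1) scale, used for all differences here and understating those of low genes, 4 members were at least 1.5-fold lower in the siXPR1 library (PER2, NR1D1, NR1D2 and BHLHE40). Of the other members, 1 was at least 1.5-fold higher (DBP) and 5 lay within 1.5-fold. Over all 16319 genes that passed this floor, 16.6% were lower and 21.7% were higher by the same rule. All 10 members, and the tested genes of the lists below, are protein-coding. Of the 11698 protein-coding genes tested, 11.1% were lower and 20.7% higher. The median difference of the members was -0.495, against 0.05 over all genes tested and 0.095 over the protein-coding ones. By the counting interval of the TPM ratio, 6 members lay below equality and 2 above, where 24.7% and 32.3% of the genes with a known length did so. With so many genes apart, an interval that misses 1 sets a member apart from counting error and not from the rest of the transcriptome.

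**Figure D2:**
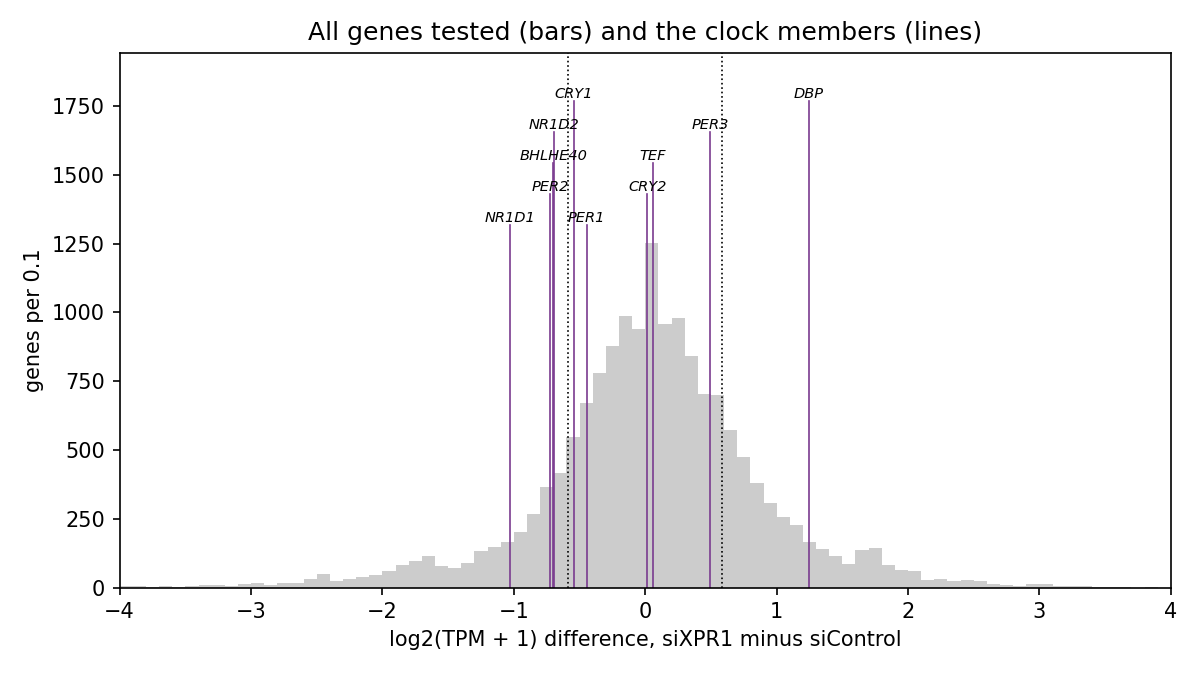
Distribution of the log2(TPM + 1) difference, siXPR1 minus siControl, over 16319 genes tested (bars, genes per 0.1; 20 genes lie beyond the axis limits of 4 on either side) with the 10 members as lines and 1.5-fold as dotted lines. NR1D1, PER2, BHLHE40 and NR1D2 lie left of the lower dotted line and DBP right of the upper one.

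The levels spanned a wide range. BHLHE40 was the most abundant member and NR1D2 the next in both libraries, and DBP was the least abundant in both. NR1D1 was the third member in the siControl library and the fifth in the siXPR1 library, below TEF and CRY1. In the siXPR1 library NR1D1, PER3 and PER1 lay close together, at 12.8, 10.2 and 9.08 TPM. In the siControl library PER2, CRY2 and PER3 did so, at 8.69, 7.38 and 6.93 TPM. Without replicates, the order of such neighbours has no spread to be set against.

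**Figure D3:**
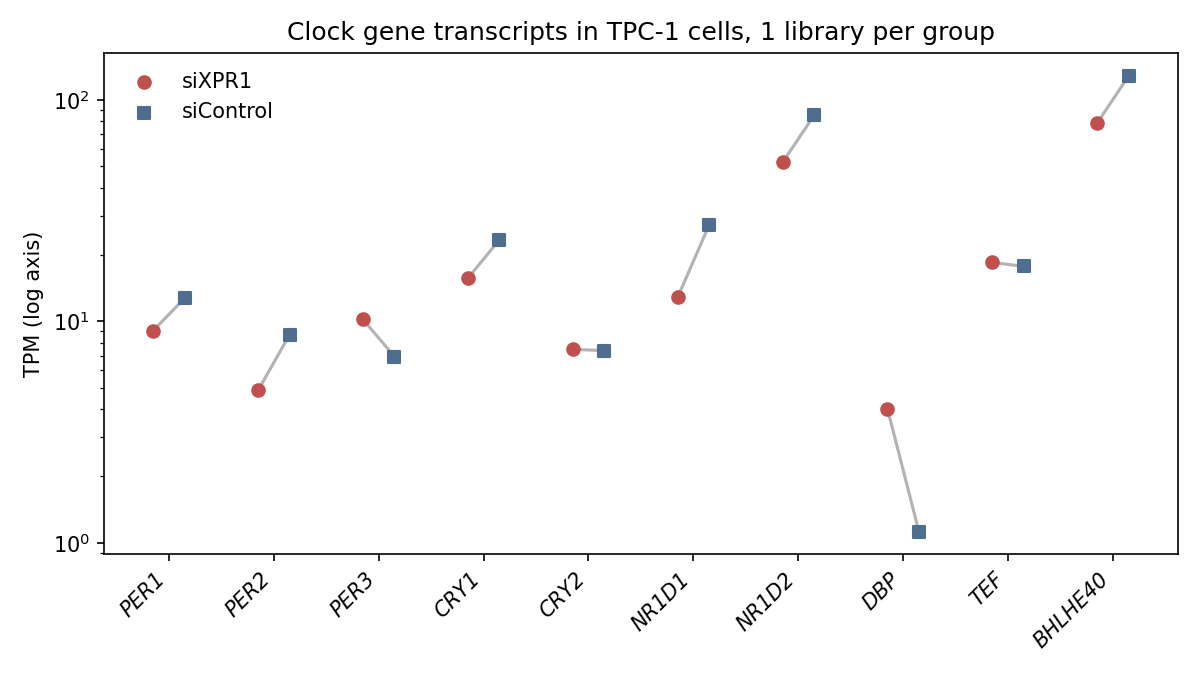
TPM of the 10 members (log axis) in the siXPR1 library (circles) and the siControl library (squares), 1 library each. BHLHE40 and NR1D2 are the most abundant in both libraries, and DBP has the steepest line, at 4.03 TPM in siXPR1 and 1.12 TPM in siControl.

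The period genes, whose proteins carry the repressor complex into the nucleus, did not move together. PER1 (ENSG00000179094, chromosome 17, 8140472 to 8156506, minus strand of GRCh38), the member best known for rapid induction by light, cAMP and glucocorticoids in mammals, was 9.08 TPM in siXPR1 and 12.7 TPM in siControl. That is 1.40-fold lower (95% interval 1.19 to 1.65), from 258 and 376 reads, and within the 1.5-fold limit. PER2 (ENSG00000132326, chromosome 2, 238244038 to 238290102, minus strand), needed for rhythm in mice, was 4.87 TPM in siXPR1 and 8.69 TPM in siControl, 1.78-fold lower (1.44 to 2.21). PER3 (ENSG00000049246, chromosome 1, 7784320 to 7845177, plus strand), which in mice is largely dispensable for rhythm, went the other way, with 10.2 TPM in siXPR1 and 6.93 TPM in siControl. Its ratio was 1.47 (1.24 to 1.74), from 335 and 237 reads. PER3 thus made up 42.2% of the PER transcripts in siXPR1 and 24.5% in siControl, and PER2 20.2% and 30.7%. The sum of all PER transcripts was 24.1 TPM in siXPR1 and 28.4 TPM in siControl.

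Exons of PER3 share 868 bases, 10.7% of their length, with UTS2, which encodes urotensin 2 and lies on the other strand. The library kit does not mark strand, so reads from the shared stretch cannot be assigned to either gene. UTS2 was 12.2 TPM in siXPR1 and 25.5 TPM in siControl, opposite in direction to PER3, and its part in the PER3 value was not tested.

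Of the cryptochromes, the strongest repressors of CLOCK and BMAL1, CRY1 was lower and CRY2 differed little. CRY1 (ENSG00000008405, chromosome 12, 106991364 to 107093829, minus strand) was 15.7 TPM in siXPR1 and 23.3 TPM in siControl, 1.49-fold lower (1.29 to 1.72). It lay just inside the 1.5-fold limit, and median-of-ratios or upper-quartile scaling put it outside, with differences of -0.60 and -0.63 in place of -0.54. CRY2 (ENSG00000121671, chromosome 11, 45847118 to 45883248, plus strand) was 7.47 TPM in siXPR1 and 7.38 TPM in siControl, a ratio of 1.01 (0.824 to 1.24). CRY1 remained the main cryptochrome, with 67.7% of CRY transcripts in siXPR1 and 75.9% in siControl.

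**Figure D4:**
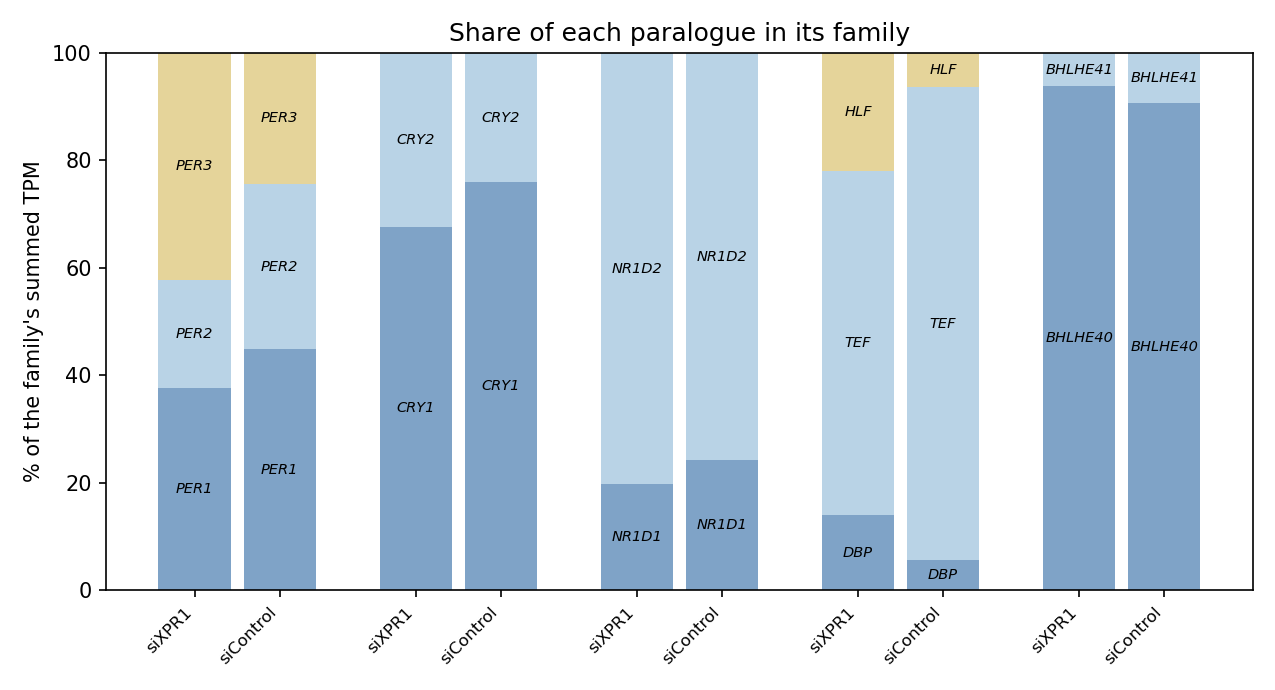
Share of each paralogue in the summed TPM of its family, with siXPR1 left of siControl in each pair. PER3 holds 42.2% of PER transcripts in siXPR1 and 24.5% in siControl, and HLF holds 22.0% and 6.27% of the DBP, TEF and HLF sum.

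The REV-ERB receptors, haem-binding repressors that link the clock to metabolism, were both lower. NR1D1 (ENSG00000126368, chromosome 17, 40092787 to 40100725, minus strand) was 12.8 TPM in siXPR1 and 27.2 TPM in siControl, 2.12-fold lower (1.74 to 2.61), from 144 and 318 reads. This was the lowest difference of the 10 members, at -1.03, and 8.27% of all genes tested had a lower one. NR1D2 (ENSG00000174738, chromosome 3, 23945260 to 23980618, plus strand) was 52.2 TPM in siXPR1 and 85.0 TPM in siControl, 1.63-fold lower (1.52 to 1.75). NR1D2 supplied most REV-ERB transcript, at 80.3% in siXPR1 and 75.8% in siControl, and the summed level was 65.0 TPM in siXPR1 and 112.2 TPM in siControl.

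Exons of NR1D1 overlap those of THRA, the thyroid hormone receptor alpha gene on the opposite strand, over 263 bases or 9.49% of the NR1D1 exons. THRA was 11.0 TPM in siXPR1 and 6.64 TPM in siControl, opposite in direction to NR1D1. No source used here says how reads from the shared bases were counted, and their part in the NR1D1 value was not tested.

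The PAR bZIP factors carry the clock's output to detoxification and metabolic genes in liver and other tissues. DBP (ENSG00000105516, chromosome 19, 48630030 to 48637438, minus strand), a direct E-box target with one of the widest daily swings of any transcript in mouse liver, was the only member at least 1.5-fold higher. It was 4.03 TPM in siXPR1 and 1.12 TPM in siControl, a ratio of 3.59 (2.39 to 5.54). That value rests on 107 and 31 reads, both low, and 6.96% of all genes tested had a larger difference. TEF (ENSG00000167074, chromosome 22, 41367333 to 41399326, plus strand) was 18.4 TPM in siXPR1 and 17.7 TPM in siControl, a ratio of 1.04 (0.897 to 1.21). DBP exons share 661 bases, 10.1% of their length, with SPHK2, a sphingosine kinase gene on the other strand. SPHK2 was 3.44 TPM in siXPR1 and 3.79 TPM in siControl. As for PER3, reads from the shared stretch cannot be assigned to either gene by strand. Their part in the DBP value, which rests on few reads, was not tested.

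HLF, the third factor of the family and not among the 10, was 6.32 TPM in siXPR1 and 1.26 TPM in siControl, a ratio of 5.02 (3.49 to 7.49) from 170 and 35 reads. The DBP, TEF and HLF transcripts summed to 28.8 TPM in siXPR1 and 20.1 TPM in siControl, with TEF at 64.0% and 88.1% of the sum. NFIL3, the repressor that binds the same D-box, was 86.9 TPM in siXPR1 and 166.2 TPM in siControl, 1.91-fold lower (1.75 to 2.09). Transcript of NFIL3 was therefore 3.02 times the DBP, TEF and HLF sum in siXPR1 and 8.28 times that sum in siControl. Of the 3 members with a D-box in a promoter window, PER3 was higher by 0.50, and PER2 and NR1D2 were lower, at -0.72 and -0.69.

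BHLHE40 (ENSG00000134107, chromosome 3, 4979116 to 4985323, plus strand), also called DEC1, is an E-box repressor that hypoxia, serum and cytokines also induce. It was 78.6 TPM in siXPR1 and 128.4 TPM in siControl, 1.63-fold lower (1.52 to 1.75), from 1225 and 2079 reads. Its paralogue BHLHE41 (DEC2) was 5.18 TPM in siXPR1 and 13.2 TPM in siControl, 2.54-fold lower (1.96 to 3.31). Their sum was 83.8 TPM in siXPR1 and 141.6 TPM in siControl, of which BHLHE40 made up 93.8% and 90.7%.

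**Figure D5:**
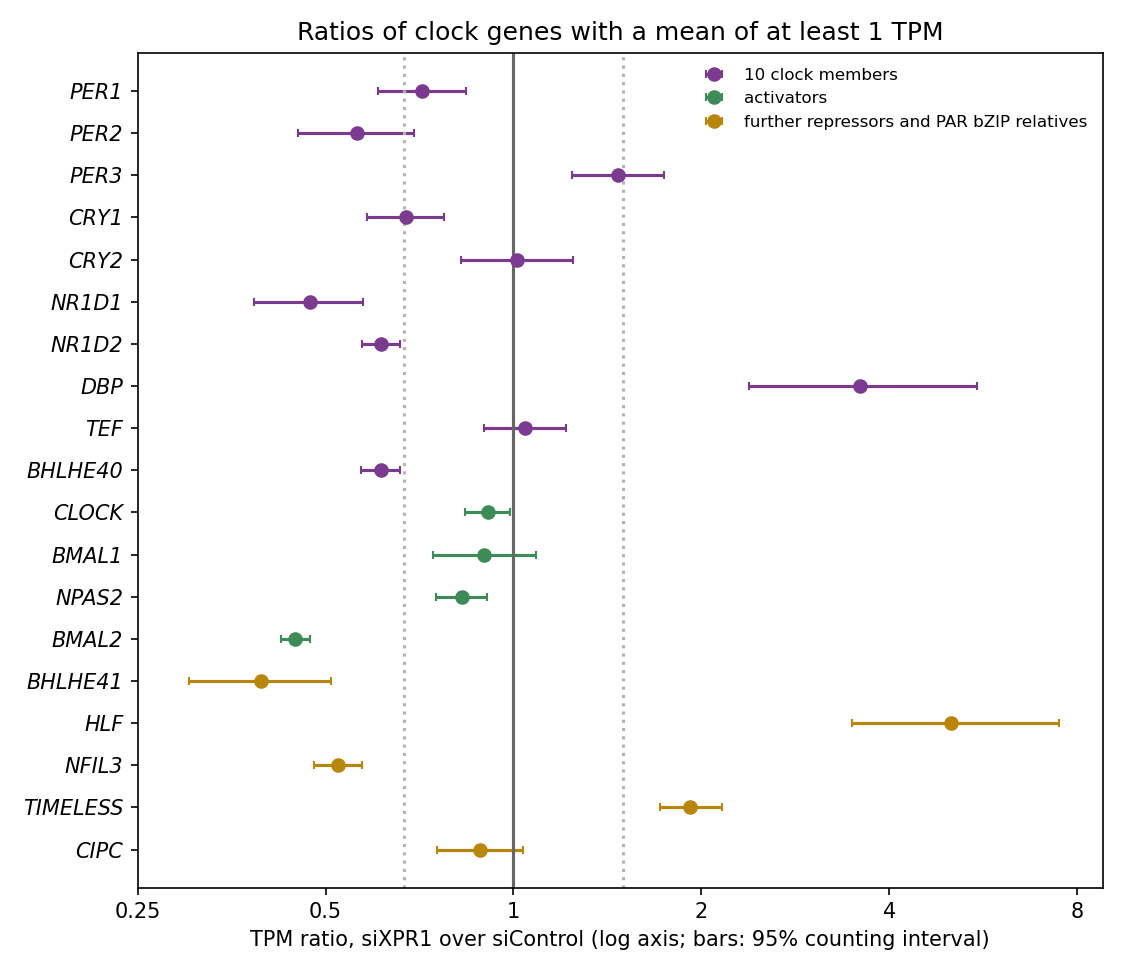
TPM ratio of siXPR1 over siControl (log axis) with 95% counting intervals for the 10 members and for the activators, further repressors and PAR bZIP relatives above the floor; dotted lines mark 1.5-fold. DBP and HLF lie farthest right, at 3.59 and 5.02, and BHLHE41, BMAL2 and NR1D1 farthest left, at 0.393, 0.447 and 0.472.

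The activators that drive the members lay within 1.5-fold, apart from BMAL2. CLOCK was 22.9 TPM in siXPR1 and 25.2 TPM in siControl, a ratio of 0.909 (0.837 to 0.987), and its partner BMAL1, the gene that REV-ERB receptors repress, was 7.69 TPM in siXPR1 and 8.56 TPM in siControl, a ratio of 0.898 (0.743 to 1.09). NPAS2, the CLOCK relative, was 15.5 TPM in siXPR1 and 18.7 TPM in siControl, a ratio of 0.826 (0.751 to 0.908). BMAL2, a BMAL1 paralogue, was 70.7 TPM in siXPR1 and 158.1 TPM in siControl, 2.24-fold lower (2.12 to 2.36), and was far more abundant than BMAL1 in both libraries. The receptor genes RORA and RORB were below the floor of 1 TPM. RORA had 4 reads in siXPR1 and 2 in siControl, and RORB had 3 and 0. Of the 4 activators tested, 1 was lower by 1.5-fold and none was higher, with a median of -0.20, beside 16.6% lower and 21.7% higher among all genes tested.

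Of 6 further repressors and relatives, 5 were tested, with BHLHE41 and NFIL3 lower, HLF and TIMELESS higher, and CIPC within 1.5-fold (13.5 TPM in siXPR1 and 15.3 TPM in siControl). Among all genes tested, 16.6% were lower and 21.7% higher, and 5 genes are too few to be read against those shares. TIMELESS, which in mammals also serves the DNA replication fork, was 36.3 TPM in siXPR1 and 18.9 TPM in siControl. CIART was listed at 0 in both libraries.

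Among 18 kinases, phosphatases and ubiquitin ligases that act on clock proteins, 17 were tested, and 1 was lower, 2 were higher and 14 lay within 1.5-fold (median -0.22). Among all genes tested 16.6% were lower and 21.7% higher, and counts of 1 and 2 genes are too small to be read against those shares. The lower one was CSNK1E, casein kinase 1 epsilon, which phosphorylates PER proteins for degradation, at 39.0 TPM in siXPR1 and 84.4 TPM in siControl, 2.16-fold lower (2.01 to 2.33). Its close relative CSNK1D was 56.4 TPM in siXPR1 and 54.1 TPM in siControl, a ratio of 1.04 (0.988 to 1.10). The higher ones were DDB1, a ubiquitin ligase adaptor, at 102.4 TPM in siXPR1 and 64.0 TPM in siControl, and the deubiquitinase USP2, at 1.58 and 0.629 TPM. Of 12 cofactors, 11 lay within 1.5-fold, none was lower and 1 was higher. Those counts are also too small to be read against the shares over all genes. The higher cofactor was the deacetylase HDAC3, which REV-ERB receptors recruit through NCOR1. HDAC3 was 50.6 TPM in siXPR1 and 31.9 TPM in siControl, and NCOR1 was 45.8 TPM in siXPR1 and 60.2 TPM in siControl.

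Genes through which cAMP reaches PER1 and other members lay mostly within 1.5-fold. Of 11 CREB pathway genes, 10 were tested, and 1 was lower, 9 lay within 1.5-fold and none was higher (median -0.15), against 16.6% lower and 21.7% higher over all genes tested. The lower one was CREM, which encodes activator and repressor forms, at 12.1 TPM in siXPR1 and 23.0 TPM in siControl, 1.89-fold lower (1.64 to 2.19). CREB1 was 20.3 TPM in siXPR1 and 23.4 TPM in siControl. PRKACA, a catalytic subunit of the cAMP-dependent kinase, was 47.9 TPM in siXPR1 and 31.7 TPM in siControl. Its TPM ratio was 1.51 (1.38 to 1.65), but its log2(TPM + 1) difference of 0.581 lay just inside the limit of 0.585.

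Glucocorticoid-induced genes were read because PER1 is one of their class. Of 10 listed with the receptor NR3C1, 8 were tested, and 6 were lower and 2 higher, with a median of -0.87. Among all genes tested, 16.6% were lower and 21.7% higher. The list is short and was chosen with earlier results of these data known, so its counts only describe it. SGK1, a kinase of ion transport, was 2.12 TPM in siXPR1 and 19.4 TPM in siControl, 9.15-fold lower (7.32 to 11.6). TSC22D3, also called GILZ, was 7.60 TPM in siXPR1 and 21.8 TPM in siControl. The EGF receptor inhibitor ERRFI1 was 139.0 TPM in siXPR1 and 295.7 TPM in siControl, and the phosphatase DUSP1 72.8 and 147.4 TPM. FKBP5, a receptor co-chaperone, and GLUL, glutamine synthetase, were the higher ones, at ratios of 1.73 (1.49 to 2.01) and 1.69 (1.58 to 1.80). The receptor NR3C1 itself was 37.9 TPM in siXPR1 and 63.2 TPM in siControl, and is among the lower 6.

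Of 13 genes that the clock controls in various tissues, 11 were tested, and 3 were lower, 1 was higher and 7 lay within 1.5-fold (median -0.23). The shares over all genes tested were 16.6% lower and 21.7% higher. NAMPT, the rate-limiting enzyme of NAD salvage, was 89.5 TPM in siXPR1 and 256.6 TPM in siControl, 2.87-fold lower (2.76 to 2.98). GADD45A, a growth arrest and DNA damage gene, was 3.54-fold lower (3.21 to 3.92), and NOCT, the phosphatase nocturnin, 1.88-fold lower (1.64 to 2.15). WEE1, the mitotic inhibitor kinase, was 13.2 TPM in siXPR1 and 10.3 TPM in siControl. USP2, named above, was the higher gene of this list too.

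With 2 libraries a gene's pattern is a single difference, so no gene can be singled out as most like a member. Other protein-coding genes within 0.1 of a member's difference numbered 166 for NR1D1 and 260 for DBP, and 1665 for CRY2 at the centre of the distribution.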

How the data were processed

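RNA of 2 libraries, 1 of each group, had been extracted with RNeasy Plus kits and prepared with the TruSeq Library Prep Kit v2 for RNA, per the labels' protocols. The authors deposited TPM values in which each column sums to 1000000. The submitters' processing notes name FastQC, MultiQC, Trimmomatic 0.38, featureCounts 2.0.0 and GRCh38; the aligner and annotation were not given in these sources. Symbols came from a table of gene identifiers (58472 of 58884 matched) and exonic lengths and coordinates from GENCODE 29 (58611).

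Differences are log2(TPM + 1), siXPR1 minus siControl. Folds are ratios of TPM. The floor was a mean TPM of 1, and genes at or above it are called tested. TPM multiplied by exonic length fell on multiples of 246.3 (siXPR1) and 237.0 (siControl), taken as 1 read. Within 0.01 of a whole number were 92.4% and 92.2% of genes with up to 10 reads, but 69.8% and 70.9% of all genes above 0, and 5 of the 10 members in both libraries (PER1, PER3, CRY2, DBP and BHLHE40). The others were rounded and are approximate. Of protein-coding genes above 0, 52.6% (siXPR1) and 53.7% (siControl) came out whole. Ratio intervals are 95% Clopper-Pearson intervals on those reads. Such intervals cover counting error only, since each group is 1 library. The reads carried no molecular identifiers, so copies of 1 molecule could count as separate reads, which would make the intervals too narrow. A count of 0 allows 3 reads, which is 0.369 and 0.355 TPM in a gene of 2000 exonic bases. The procedure was tested on simulated data. The simulated reads used the same gene lengths, so that test cannot show errors from lengths that differ from those of the submitters. Python 3.11.15, pandas 2.3.3 and SciPy 1.17.1 were used.

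The plan named all 10 members, XPR1, every activator and further repressor, and genes overlapping a member. Of the other lists it named up to 4 genes in each direction past 1.5-fold. CSNK1D, NCOR1, CREB1, PRKACA, NR3C1 and WEE1 were chosen after their values were seen. Some genes that the plan takes are not reported here. Members and lists were chosen with earlier results of these data known. The E'-box was added after seeing the data. Protein sequences were not used here.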

Additional observations from a re-analysis of the deposited data

How the results depend on the processing

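The count of 4 lower members ranged between 3 and 5 over the alternatives. The median difference of all members tested, lower or not, ranged between -0.579 and -0.393. The count of 1 higher member, DBP, became 0 with a pseudocount of 5 (DBP difference 0.56 in place of 1.24), with a floor of 5 TPM, which leaves DBP out, and when members that overlap an expressed gene (PER3, NR1D1 and DBP) were left out, an alternative chosen after seeing the data. The last also gave 3 lower members. PER2, NR1D1, NR1D2, BHLHE40, PER1 and CRY1 were lower and PER3 and DBP higher under each pseudocount, scaling and unit tried, while CRY2 and TEF changed sign under both scalings (as low as -0.064 and -0.029). The scaling factors were 0.062 (median-of-ratios) and 0.091 (upper-quartile) on the log2 scale, and differences of low genes moved by less, since 1 is added to the TPM.

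With a pseudocount of 5, 12.7% of genes tested were higher and 9.1% lower, and with recovered reads in place of TPM 10.5% were lower. The count of higher genes also became 1 for the kinase and ligase list (pseudocount 5, upper-quartile scaling or a floor of 5 TPM), where upper-quartile scaling gave 2 lower, 0 for the cofactors (upper-quartile scaling), 1 for the CREB list (pseudocount 0.1 or recovered reads), 1 for the glucocorticoid list (pseudocount 5) and 0 for the output list (pseudocount 5 or a floor of 5 TPM). A floor of 5 TPM left 1 higher gene among the further repressors and gave them a median of -0.547. Apart from the floor and the omission, which test fewer genes, the cause was not tested.

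No paired analysis was possible because there is a single library on each side, which also leaves no replicate to omit. Depth limits DBP, HLF, USP2, RORA and RORB most.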
